A study of Mus musculus with 6 samples.

Results

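ATP-dependent chromatin remodelers were examined as a set of 56 genes, among the 24736 gene symbols with a deposited value in mouse intestinal crypts. The members were taken by name and not by a cut on their values, though with earlier results of these data known. They were 22 genes of SWI/SNF, 8 CHD helicases, 7 genes of ISWI, 11 of INO80 with its relatives, 7 further subunits of NuRD, and Atrx. All 56 were in the table. Of these, 16 encode the catalytic ATPase of a complex and the rest encode subunits that target or hold it. RNA sequencing was performed on crypt epithelium, with 1 library from each of 3 wild-type (WT) mice and 3 mice labelled Mtg16-/-, all males of 12 weeks and otherwise untreated. MTG16, encoded by Cbfa2t3, is a transcriptional co-repressor. The sample labels call its knockout CRISPR-induced while the study's methods describe a donated Mtg16-/- line, and no Cre driver or cell type restriction is stated for it.

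Remodelers spend ATP to slide, evict or exchange nucleosomes, so that DNA becomes more or less open to other factors. SWI/SNF mostly opens promoters and enhancers, ISWI spaces nucleosomes, INO80 and SRCAP handle the histone variant H2A.Z, and NuRD couples a CHD ATPase to histone deacetylases in gene repression. Many subunits exist as paralogs that take the same place in a complex, so that the balance between paralogs sets which form of the complex a cell can build. In the intestine, SWI/SNF subunits such as ARID1A and the NuRD ATPase CHD4 are known for their part in keeping crypt stem cells and their differentiation.

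Values are TPM, relative transcript levels that are divided by transcript length and so can be compared between genes. The level of Cbfa2t3 itself was 3.67, 6.69 and 4.52 TPM in the WT libraries and 4.62, 6.43 and 3.23 TPM in the libraries labelled Mtg16-/-. The groups overlapped, and a gene-level value cannot show a missing exon, so each direction below rests on the labels. Enterocyte markers summed to between 15100 and 42800 TPM in WT and between 7680 and 14700 TPM in Mtg16-/-, with WT replicate 1 at the top. Paneth cell markers summed to between 10400 and 24600 TPM in WT and between 29700 and 38700 TPM in Mtg16-/-, and stem cell markers to between 768 and 1340 TPM against 1440 and 1880 TPM. Enteroendocrine markers lay between 239 and 308 TPM in WT and between 419 and 440 TPM in Mtg16-/-. Goblet markers ran from 6130 to 10800 TPM against 4980 to 7440 TPM, tuft markers from 32.6 to 66.3 TPM against 26.1 to 33.5 TPM, and proliferation markers from 579 to 798 TPM against 680 to 830 TPM. Of the cell types that an epithelial preparation should lack, immune markers summed to at most 98.0 TPM and markers of stroma and muscle to at most 8.48 TPM, with no marker of any list at 0 in a library. In such bulk libraries, fewer cells of a type and less RNA per cell cannot be told apart. The libraries spread along a first principal component of 47.7% of the variance, with WT replicate 1 at one end and Mtg16-/- replicate 3 at the other. Values without these libraries are given beside the larger differences.

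Crypts expressed nearly the whole set. The median member had a mean of 37.2 TPM over the 6 libraries, against 20.7 TPM for the median of all 12268 genes that passed the filter of a mean of at least 1 TPM, and 55 of the 56 members passed. Smarca1, the ISWI ATPase known from neurons, did not, with 0.16, 0.12 and 0.07 TPM in WT and 0.08, 0.31 and 0.09 TPM in Mtg16-/-. Among the 55, mean levels ran from 2.25 TPM for Smarcd3 to 127 TPM for Mbd2. Between WT mice the median coefficient of variation was 9.37% over the members and 15.4% over all tested genes. This comparison was not matched for level, and the members were the more abundant. Chd3 stood apart with 39.5%, ahead of Bcl7c with 31.5%.

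Promoter sequences are shown for Chd4, the most abundant of the ATPases, and for Srcap and Bcl7b, which are among the members whose groups did not overlap. Each is the 250 bases before an annotated start in RefSeq on GRCm38.p6, on the plus strand and read 5′ to 3′, with CpG dinucleotides in capitals.
Chd4, chr6:125095731-125095980: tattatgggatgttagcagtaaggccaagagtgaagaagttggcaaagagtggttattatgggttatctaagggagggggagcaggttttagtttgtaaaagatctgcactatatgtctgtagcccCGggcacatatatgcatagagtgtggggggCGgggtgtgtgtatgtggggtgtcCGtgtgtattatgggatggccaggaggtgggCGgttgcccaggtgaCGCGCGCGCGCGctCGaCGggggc
Srcap, chr7:127511733-127511982: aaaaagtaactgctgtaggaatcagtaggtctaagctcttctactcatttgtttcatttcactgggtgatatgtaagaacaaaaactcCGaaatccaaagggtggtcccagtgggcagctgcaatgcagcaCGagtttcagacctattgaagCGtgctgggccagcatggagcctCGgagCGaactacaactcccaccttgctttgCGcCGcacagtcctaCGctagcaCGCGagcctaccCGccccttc
Bcl7b, chr5:135168122-135168371: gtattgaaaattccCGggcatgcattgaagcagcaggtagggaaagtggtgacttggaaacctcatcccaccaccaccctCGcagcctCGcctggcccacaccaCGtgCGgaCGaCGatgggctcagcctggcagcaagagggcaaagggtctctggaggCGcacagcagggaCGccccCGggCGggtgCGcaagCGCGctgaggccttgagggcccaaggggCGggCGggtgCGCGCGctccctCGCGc
The windows hold 12, 11 and 21 CpGs, with observed over expected CpG of 0.84, 0.67 and 0.74. RefSeq windows were found for 41 members, and 35 of these (85.4%) had a ratio of at least 0.6, against 67.3% of the 9533 tested genes and 34.5% of all 27025 genes with a window. The promoters of remodeler genes were thus mostly of the CpG-rich kind that many widely expressed genes have. Of 3 motifs searched on both strands, CCGGAA, the core bound by ETS factors, was in 24.4% of the member windows and 23.2% of tested genes, CCAAT in 34.1% and 37.0%, and TATAAA in 9.76% and 6.51%. None of the 3 is in the printed windows.

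No remodeler gene was called at the threshold used, which very few genes of any kind passed. The lack of calls therefore says little about remodelers in particular. With limma on log2(TPM + 1), 0 of the 55 tested members were called at a Benjamini-Hochberg adjusted p under 0.1, where 0.0326% of all tested genes were called (4 genes, 2 higher and 2 lower). At an unadjusted p under 0.05 the count was 1 of 55, Chd3, against 14.6% of all tested genes. The lowest adjusted p of any member was 0.312. The groups did not overlap in 1 member with higher values in Mtg16-/- (Mbd2), against 9.94% of all genes, and in 5 with lower values (Chd3, Srcap, Bcl7b, Gatad2a and Brd9), against 11.1%. In both directions together this was 10.9% of the members and 21.0% of all tested genes.

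The share of genes with an interval close to no change was higher among members than among all tested genes, without matching for level. This depends on the size of the difference as well as on the width of the interval. For 54 of the 55 members the 95% interval of the fold change lay within 2-fold in either direction, against 83.3% of all tested genes. For 44 members (80.0%) it lay within 1.5-fold, against 46.1% of all tested genes. Only the interval of Chd3 reached beyond 2-fold. Point estimates were under 0.4 on the log2 scale in either direction for 54 of 55, with 20 members higher and 35 lower in Mtg16-/-. Of all tested genes, 46.4% were higher. The median log2 fold change of the members was -0.06, beside -0.03 over all tested genes.

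**Figure D1:**
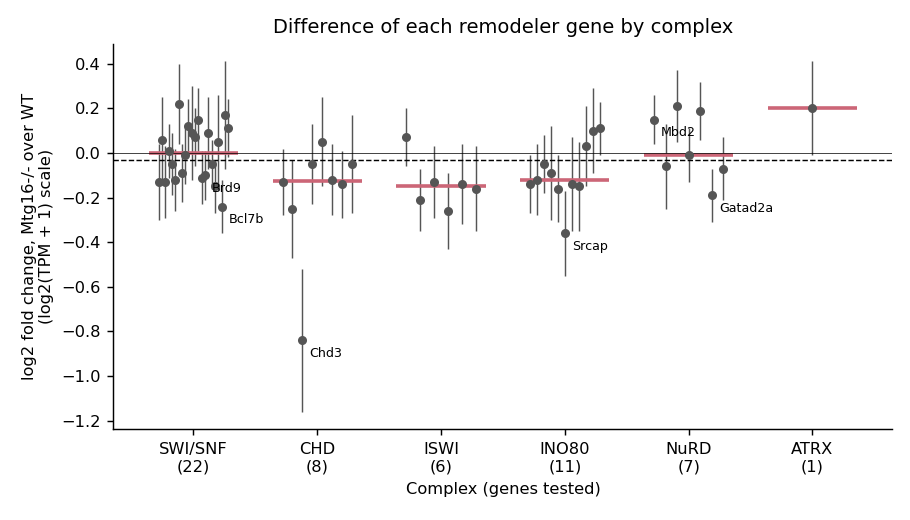
Log2 fold change (Mtg16-/- over WT, log2(TPM + 1) scale) of each tested remodeler gene, by complex, with the standard error as a bar. The red line is the median of the complex and the dashed line that of all tested genes (-0.03). Named genes are those whose groups did not overlap, and Chd3 lies at -0.84, apart from the rest.

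By complex, SWI/SNF was split evenly, with 11 of 22 genes higher and 11 lower and a median log2 fold change of 0.00. NuRD subunits other than the ATPases had a median of -0.01, with 3 of 7 higher. Values below zero were more common in the other complexes: 7 of 8 CHD genes (median -0.12), 5 of 6 ISWI genes (median -0.15) and 8 of 11 INO80 genes (median -0.12) were lower in Mtg16-/-. Among all 12268 tested genes, 6581 were lower. Atrx alone had a value of 0.20. These medians moved with single libraries. Without Mtg16-/- replicate 3 they were 0.01 for CHD, -0.01 for ISWI and -0.04 for INO80. Without Mtg16-/- replicate 2 they were -0.22 for CHD, -0.28 for ISWI and -0.08 for INO80, and without WT replicate 3 the INO80 median was -0.06. Over all single libraries left out, the CHD median ran from -0.22 to 0.01 and the ISWI median from -0.28 to -0.01.

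Mtg16-/- replicate 3 had the lowest of the 6 values in 13 of the 15 tested ATPases, the exceptions being Smarca5 and Atrx, in 8 of 8 CHD genes and in 5 of 6 ISWI genes. Over the 40 members that are not ATPases it was lowest in 32.5%, against 31.5% of all tested genes. Conversely WT replicate 1 was lowest in 0 of the 15 ATPases but in 45.0% of the other members, against 26.4% of all genes. The summed TPM of the ATPases was 678, 618 and 694 in WT and 607, 704 and 482 in Mtg16-/-, so that 2 of the Mtg16-/- libraries lay close to the WT range and replicate 3 lay far below it. Across complexes, the median log2 deviation of that library from the mean of the 6 libraries was -0.37 for CHD and -0.36 for ISWI, but -0.02 for SWI/SNF, -0.02 for INO80 and -0.01 for NuRD.

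**Figure D2:**
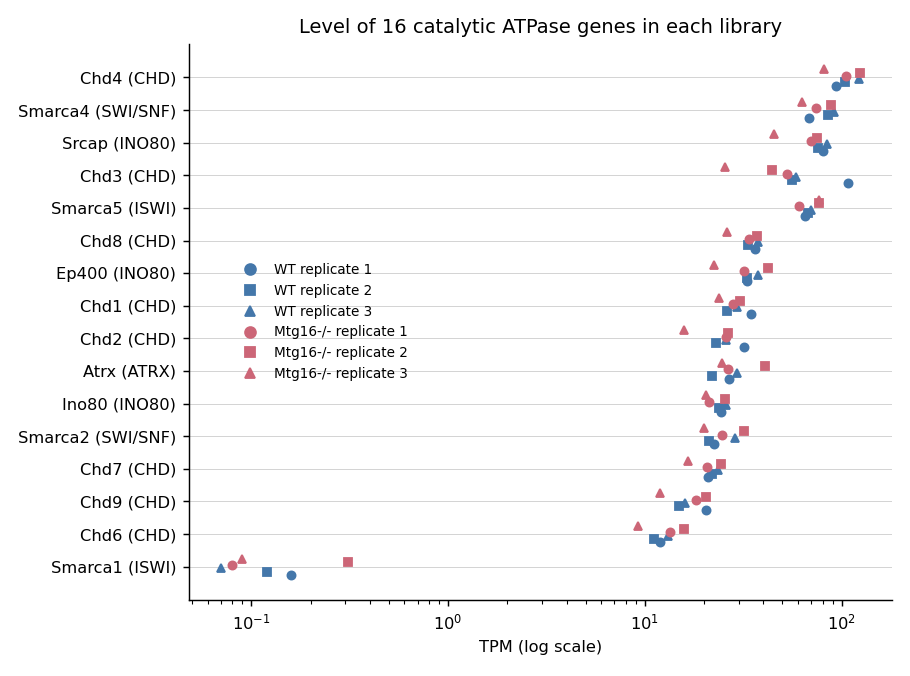
TPM of the 16 catalytic ATPase genes in each of the 6 libraries, on a log axis, ordered by the WT mean (blue, WT; red, Mtg16-/-; symbols mark replicates 1 to 3). Mtg16-/- replicate 3 (red triangle) is lowest for 13 of the 15 genes above 1 TPM, and Smarca1 lies far below the others.

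Transcript length moved with this library. The median of the longest annotated transcript over the tested members was 5921 bases. The longest annotated transcript of a gene need not be the one expressed in crypts. In Mtg16-/- replicate 3 the 28 members of at least this length had a median deviation of -0.32 and 25 of them were below zero, while the 27 shorter members had a median of 0.00. Spearman's rho between length and deviation in this library was -0.72 over the 55 members and -0.26 over 12108 tested genes with a length. These are correlations across genes of 1 library, and genes are not independent replicates. In WT replicate 1 and Mtg16-/- replicate 2 rho was positive, 0.49 and 0.53, and in the other libraries it lay between -0.30 and 0.26. The deviations of each gene cancel over the libraries, so these rho values are not independent of that in Mtg16-/- replicate 3. Over both groups, long members had a median log2 fold change of -0.12 and short ones of -0.01, and without Mtg16-/- replicate 3 the medians were 0.04 and 0.00. Without WT replicate 1 they were -0.13 and -0.08, with 20 of 28 long and 16 of 27 short members lower, so the gap between long and short members was small without either library. The part of RNA quality or library preparation in this was not tested.

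**Figure D3:**
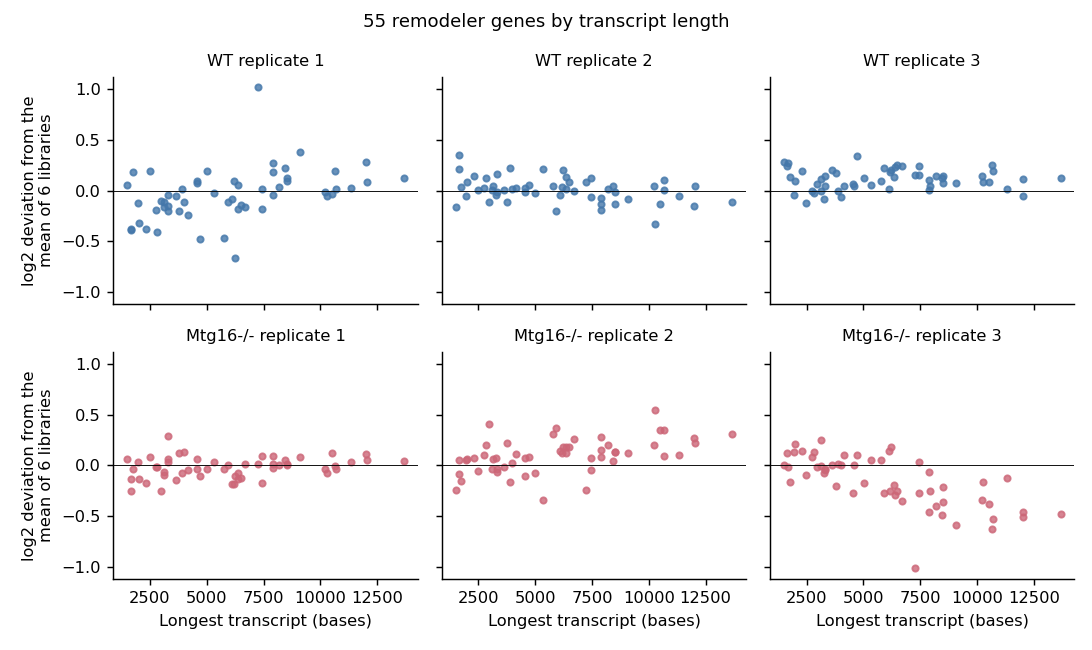
Log2 deviation of each of the 55 tested remodeler genes from its mean over the 6 libraries, against the length of its longest transcript in bases, with 1 panel per library. In Mtg16-/- replicate 3 the values fall below zero with length (25 of 28 long genes), whereas in Mtg16-/- replicate 2 long genes lie mostly above zero.

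Among the SWI/SNF genes, the ATPase Smarca4 (BRG1, chromosome 9 from 21616106 to 21704230) had 68.31, 85.20 and 91.39 TPM in WT and 73.78, 87.86 and 62.93 TPM in Mtg16-/-. The groups overlapped, with a log2 fold change of -0.13 (standard error 0.17, 95% interval -0.51 to 0.26, adjusted p = 0.738 from limma).

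The alternative ATPase of the complex, Smarca2 (BRM), was lower than Smarca4 in every library, with 22.50, 21.10 and 28.81 TPM in WT and 24.54, 31.77 and 20.07 TPM in Mtg16-/-. Of the summed TPM of the pair, Smarca4 held 77.1% ± 2.64 (SD, n = 3 libraries) among WT and 74.8% ± 1.21 (SD, n = 3 libraries) among Mtg16-/- libraries, which differed by -2.37 percentage points (exact permutation test over libraries, two-sided, p = 0.2). This was -0.86 points without WT replicate 2, which had the highest share, and up to -3.32 points with another library left out. The core subunit with the highest fold change was Smarcc1 (BAF155), at 38.72, 55.53 and 57.37 TPM in WT and 52.57, 67.15 and 55.72 TPM in Mtg16-/-. Its groups overlapped, and the low value was WT replicate 1 (log2 fold change 0.22, adjusted p = 0.572 from limma, and 0.04 without that library). Bcl7b, an accessory subunit on chromosome 5 from 135168372 to 135181852, had the lowest fold change of SWI/SNF. Its 26.22, 23.63 and 25.39 TPM in WT were all above the 22.40, 20.53 and 20.44 TPM in Mtg16-/- (log2 fold change -0.24, standard error 0.12, 95% interval -0.51 to 0.03, adjusted p = 0.387 from limma). Brd9, the bromodomain subunit that marks the non-canonical form (chromosome 13 from 73937801 to 73960895), had 30.31, 29.28 and 29.65 TPM in WT and 27.96, 26.54 and 28.77 TPM in Mtg16-/-. These groups did not overlap either, but the difference was small (log2 fold change -0.10, adjusted p = 0.691 from limma). Genes found only in the canonical form (Arid1a, Arid1b and Dpf2) had a median log2 fold change of -0.05 and those of PBAF (Arid2, Pbrm1, Brd7 and Phf10) of -0.08, beside -0.10 for Brd9 as the only member of the non-canonical form. All 22 SWI/SNF genes had a 95% interval within 2-fold, and 19 within 1.5-fold.

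The CHD helicases held the member with the largest difference. Chd3, a NuRD ATPase on chromosome 11 from 69343273 to 69369499, had 107.49, 55.65 and 58.43 TPM in WT and 53.00, 44.07 and 25.43 TPM in Mtg16-/-. Every WT library was above every Mtg16-/- library, but by only 55.65 against 53.00 TPM at the boundary, and WT replicate 1 was far above the other two. The log2 fold change was -0.84 (standard error 0.32, 95% interval -1.58 to -0.09) and the limma test gave an unadjusted p of 0.033 and an adjusted p of 0.312. It was -0.53 without WT replicate 1, -0.54 without Mtg16-/- replicate 3 and -0.23 without both. The 6 libraries took the same order by Chd3 as by the summed TPM of 12 enterocyte markers, which was 42800, 15100 and 18600 in WT and 14700, 8220 and 7680 in Mtg16-/-. They took this order along the first principal component as well, which was computed from all tested genes, Chd3 and these markers included. Whether Chd3 followed these markers or a wider pattern was not tested. With an enterocyte score as a covariate the log2 fold change of Chd3 was 0.00, but the enterocyte sums did not overlap between the genotypes, so genotype and enterocyte content cannot be told apart in these 6 libraries. A small Cajal body RNA gene lies within Chd3 on the same strand and has no row of its own in the table, so reads from it could not be separated here. Chd4 likewise overlaps a small Cajal body RNA gene on the same strand that has no row.

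Chd4, the other NuRD ATPase (chromosome 6 from 125095980 to 125130591), had 93.08, 104.02 and 123.05 TPM in WT and 104.96, 124.62 and 81.29 TPM in Mtg16-/-. Its groups overlapped widely (log2 fold change -0.05, standard error 0.18, 95% interval -0.48 to 0.37, adjusted p = 0.907 from limma), and without Mtg16-/- replicate 3 the sign turned, to 0.11. Chd4 therefore held a larger share of the summed TPM of Chd3 and Chd4 in Mtg16-/- on average, at 72.2% ± 5.08 (SD, n = 3) against 59.8% ± 11.7 (SD, n = 3) in WT. By library the share was 46.4%, 65.1% and 67.8% in WT and 66.4%, 73.9% and 76.2% in Mtg16-/-, so the groups overlapped (difference 12.4 points, exact permutation test, two-sided, p = 0.2). The difference was 5.69 points without WT replicate 1, the library with by far the lowest share.

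**Figure D4:**
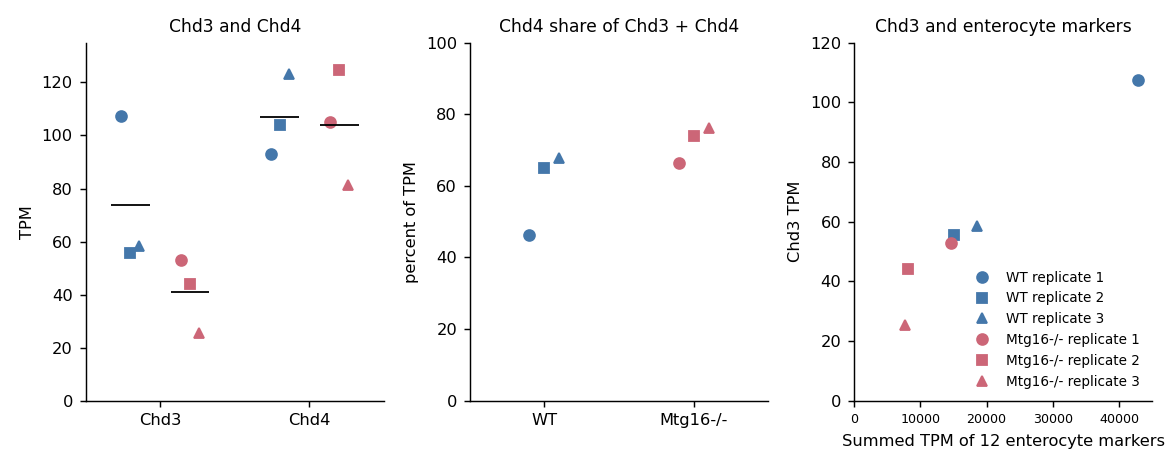
Left, TPM of Chd3 and Chd4 in each library, with the group mean as a line. Middle, Chd4 as a percent of the summed TPM of both. Right, Chd3 TPM against the summed TPM of 12 enterocyte markers. WT replicate 1 has the highest Chd3 (107.49 TPM), the lowest Chd4 share (46.4%) and the highest enterocyte sum (42800 TPM).

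The remaining CHD genes were lower in abundance and their groups overlapped. Chd1, which spaces nucleosomes behind RNA polymerase, had 34.69, 26.09 and 29.53 TPM in WT and 28.12, 30.40 and 23.79 TPM in Mtg16-/-. Its close relative Chd2 had 32.06, 23.02 and 25.77 TPM against 25.95, 26.56 and 15.89 TPM. For both, WT replicate 1 was highest and Mtg16-/- replicate 3 lowest, and the log2 fold changes were -0.13 and -0.25. Without Mtg16-/- replicate 3 they were -0.03 and -0.02, and without WT replicate 1 they were -0.02 and -0.13. The CHD6 to CHD9 subfamily includes CHD7, mutated in CHARGE syndrome, and CHD8, a regulator of Wnt target genes linked to autism. Chd8 had 36.13, 33.44 and 37.45 TPM in WT and 34.00, 37.28 and 26.22 TPM in Mtg16-/-. Chd7 had 20.99, 21.98 and 23.45 TPM against 20.69, 24.45 and 16.48 TPM. Their log2 fold changes were -0.14 and -0.12, and replicate 3 of Mtg16-/- was again the lowest. Without it they were 0.00 and 0.02. Chd9 had 20.49, 14.99 and 16.04 TPM in WT and 18.10, 20.40 and 11.90 TPM in Mtg16-/-. Chd6 had 12.00, 11.13 and 13.11 TPM against 13.43, 15.90 and 9.22 TPM, with the other 2 Mtg16-/- libraries above all WT libraries. Chd6 was the only CHD gene with a fold change above zero, at 0.05, beside -0.05 for Chd9.

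In ISWI, Smarca5 (SNF2H, chromosome 8 from 80699943 to 80739459), the ATPase shared by the ISWI complexes of most cells, had 65.22, 67.09 and 69.66 TPM in WT and 60.83, 76.50 and 76.41 TPM in Mtg16-/-. It held at least 99.6% of the summed TPM of Smarca5 and Smarca1 in every library. In Mtg16-/-, 2 libraries lay above the WT range and the third below it (log2 fold change 0.07, standard error 0.13, 95% interval -0.23 to 0.37). The 5 partners of Smarca5 in the set had lower means in Mtg16-/-, while Rsf1, a partner outside the set, had a log2 fold change of 0.03. Baz2a (TIP5), the subunit that makes the nucleolar NoRC complex with Smarca5, had the lowest fold change, with 59.07, 52.18 and 55.45 TPM in WT and 52.52, 52.15 and 35.74 TPM in Mtg16-/- (log2 fold change -0.26, standard error 0.17, adjusted p = 0.482 from limma). The first 2 of these Mtg16-/- values lie at the lower edge of WT, and only replicate 3 lies well below, so that the log2 fold change was -0.08 without it. Baz1a, Baz1b, Baz2b and Bptf had log2 fold changes between -0.21 and -0.13.

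Among the ATPases of the INO80 family, Srcap had the largest difference. SRCAP, on chromosome 7 from 127511983 to 127561219, deposits H2A.Z. Its gene had 80.83, 75.62 and 83.92 TPM in WT and 70.12, 74.93 and 45.27 TPM in Mtg16-/-. The groups did not overlap, though 2 of the Mtg16-/- libraries were close to the WT values and the third was far lower. The log2 fold change was -0.36 (standard error 0.19, 95% interval -0.81 to 0.08, adjusted p = 0.411 from limma) and -0.14 without Mtg16-/- replicate 3. Annotated genes overlap Srcap, among them an antisense RNA gene with at most 3.95 TPM. A small nucleolar RNA gene on the same strand had up to 19.1 TPM. Smarcc1 likewise overlaps Dhx30 on the opposite strand, which had between 24.38 and 32.04 TPM. The strand setting of the counting is not given in the sources used here. Ino80 had 24.44, 23.84 and 25.94 TPM in WT and 21.27, 25.63 and 20.35 TPM in Mtg16-/- (log2 fold change -0.14). Ep400, the scaffold ATPase of the TIP60 complex, had 33.22, 33.03 and 37.66 TPM against 31.97, 42.22 and 22.52 TPM, with the highest and the lowest value both in Mtg16-/- (log2 fold change -0.14). The shared AAA+ subunits Ruvbl1 and Ruvbl2 had log2 fold changes of -0.15 and 0.03. Actr8, an actin-related subunit, had the highest of the family, 0.11, with 22.27, 24.43 and 23.02 TPM in WT and 26.61, 24.55 and 24.23 TPM in Mtg16-/-. Atrx, a remodeler of repeats and telomeres, had 26.80, 21.93 and 29.46 TPM in WT and 26.32, 40.99 and 24.61 TPM in Mtg16-/-, and its log2 fold change of 0.20 became -0.02 without Mtg16-/- replicate 2.

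The NuRD subunits beside the ATPases held the only member with higher values in every Mtg16-/- library. Mbd2, a reader of methylated CpG on chromosome 18 from 70568225 to 70629134, had 116.46, 122.33 and 123.34 TPM in WT and 130.37, 131.33 and 139.11 TPM in Mtg16-/-. The difference was small, a log2 fold change of 0.15 (standard error 0.11, 95% interval -0.10 to 0.39, adjusted p = 0.535 from limma). Gatad2a, which bridges the deacetylase and the ATPase modules of NuRD (chromosome 8 from 69907069 to 69996402), had 68.86, 59.13 and 65.91 TPM in WT and 58.76, 56.94 and 53.28 TPM in Mtg16-/-. Here too the groups did not overlap, by 59.13 against 58.76 TPM (log2 fold change -0.19, standard error 0.12, adjusted p = 0.451 from limma). Mta1, a scaffold subunit, had 28.45, 41.41 and 37.25 TPM in WT and 37.41, 43.78 and 41.58 TPM in Mtg16-/-. WT replicate 1 was the low value and the groups overlapped (log2 fold change 0.21, adjusted p = 0.553 from limma, and 0.05 without that library). Mta2, the most abundant of the MTA scaffolds, had a log2 fold change of -0.01 and Mta3 of 0.19.

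Shares within paralog groups do not change when all values of a library are multiplied by 1 factor, and 14 groups were compared. The groups overlapped in 12 of them, and no Benjamini-Hochberg adjusted p over the 14 exact permutation tests was below 0.42, where 0.1 is the smallest unadjusted p that 3 libraries against 3 allow. Mta2 held 56.3%, 54.8% and 57.5% of the TPM of the 3 MTA genes in WT and 50.5%, 53.4% and 54.0% in Mtg16-/-, without overlap (difference -3.59 points, exact two-sided p = 0.1). Baz2a held 67.3%, 68.7% and 67.1% of Baz2a and Baz2b in WT and 66.1%, 65.0% and 66.5% in Mtg16-/-, again without overlap (difference -1.80 points, exact two-sided p = 0.1). The mean share moved by under 5 points in 11 of the 14. The others were Chd4, Smarcc1 against Smarcc2 (39.7% ± 5.79 in WT, 45.0% ± 3.84 in Mtg16-/-, SD, n = 3) and Bcl7c within the BCL7 genes (48.9% ± 7.25 and 54.5% ± 2.85, SD, n = 3). In each of these 3 the lowest share was that of WT replicate 1, and without it the difference went from 5.31 to 1.97 points for Smarcc1 and from 5.55 to 1.46 points for Bcl7c, while that of Mbd3 went from -3.39 to -6.29 points. With 1 library left out, 11 to 13 of the 14 groups stayed under 5 points. The dominant paralog was the same in both genotypes for the SWI/SNF genes Arid1a (76.7% and 74.9% of Arid1a and Arid1b) and Smarcd2 (80.5% and 81.7% of the 3 SMARCD genes), and for Baz1b (72.5% and 73.8% of Baz1a and Baz1b). Mbd3 held 38.6% of Mbd2 and Mbd3 in WT and 35.2% in Mtg16-/-, Brd9 36.3% and 36.4% of Brd9 and Brd7, Chd1 52.8% and 55.1% of Chd1 and Chd2, and Chd8 41.0% and 39.5% of its subfamily.

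**Figure D5:**
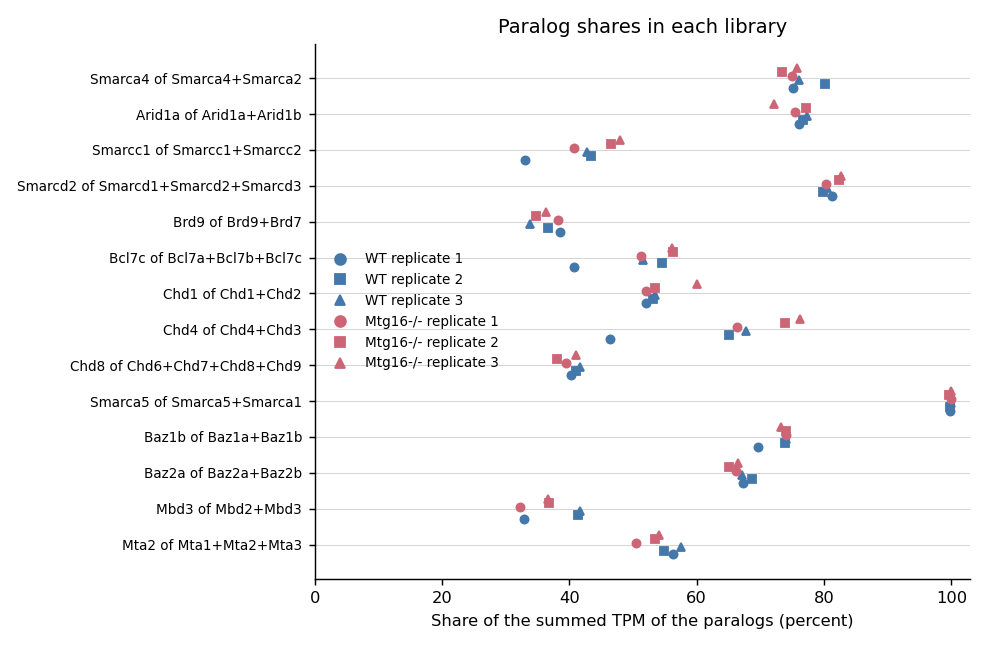
Share of the first-named gene in the summed TPM of its paralog group, in percent, for 14 groups and each of the 6 libraries (blue, WT; red, Mtg16-/-; symbols mark replicates). Points of both genotypes overlap in all groups but Mta2 and Baz2a, and WT replicate 1 lies lowest for Chd4, Smarcc1 and Bcl7c.

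Remodelers and subunits outside the set gave no call either, at a threshold that very few genes of any kind passed. Of 45 further genes of these pathways, 41 passed the filter, and 0 of them were called by limma at an adjusted p under 0.1 (0.0326% of all tested genes), with 3 at an unadjusted p under 0.05 (14.6% of all tested genes). Their median log2 fold change was 0.04, with 26 higher and 15 lower, beside a median of -0.06 and 35 of 55 lower for all members. Among all tested genes 46.4% were higher, with a median of -0.03. For the catalytic ATPases the median was -0.13, with 11 of 15 lower. Mtg16-/- replicate 3 was the lowest library in 86.7% of these ATPases and in 34.1% of the partner genes. The difference between these lists was not tested. The groups did not overlap in 5 with higher values (9.94% of all tested genes) and in 2 with lower values (11.1%), together 17.1% of these genes against 21.0% of all. Rbbp7, the histone chaperone shared by NuRD and other complexes, had 121.02, 155.72 and 148.75 TPM in WT and 160.46, 181.05 and 227.25 TPM in Mtg16-/- (log2 fold change 0.41, adjusted p = 0.322 from limma). Ing3 of the TIP60 complex and Chrac1 of ISWI had log2 fold changes of 0.34 and 0.24. Bicra, which belongs to the same non-canonical SWI/SNF form as Brd9, had 19.46, 18.16 and 17.63 TPM in WT and 14.93, 16.35 and 11.11 TPM in Mtg16-/- (log2 fold change -0.38, adjusted p = 0.343 from limma). Znhit1, a SRCAP subunit, had 87.61, 99.40 and 88.37 TPM in WT and 70.36, 80.14 and 64.75 TPM in Mtg16-/- (log2 fold change -0.35, adjusted p = 0.297 from limma). For the NuRD deacetylases Hdac1 and Hdac2 the log2 fold changes were 0.01 and 0.28.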

How the data were processed

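Per the labels, crypts were released in cold EDTA, and libraries were made from 200 ng of RNA with ribosomal RNA depletion. The authors quantified genes with RSEM 1.3.0 and deposited TPM values rounded to 2 decimals. The submitters' processing notes also name cutadapt 1.9.1, STAR 2.5.2a, DESeq2 1.12.3 and the build mm10. TPM keeps no read number, so depth is unknown and no interval that needs it is given. TPM also sums to the same total in each library, so a few very abundant genes can shift the rest.

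Values were tested as log2(TPM + 1), with a pseudocount of 1, for the 12268 genes with a mean of at least 1 TPM. The test was limma 3.58.1 (lmFit, eBayes with an intensity trend, R 4.3.3), Mtg16-/- against WT with no covariate, with Benjamini-Hochberg adjustment over all tested genes and a threshold of 0.1. Fold changes on this scale understate those of low genes. Paralog shares were compared by two-sided exact permutation tests (scipy 1.17.1). The limma p-values set the difference between the groups against the spread of libraries within them, moderated over genes. The exact p-values rank the group difference among all ways to label the libraries. Both rest on these 6 libraries, and nothing in the labels describes how the animals were housed or matched. Lengths came from GENCODE vM21 (the longest transcript), and positions and promoters from RefSeq GRCm38.p6, where all 56 members had a position and 41 a promoter window.

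The members and gene lists were chosen with earlier results of these data known. Values are given for the 16 catalytic ATPases, for members whose groups did not overlap, and for the members with the highest and lowest fold change of each complex. Of the 45 partner genes, those without overlap and with the largest differences, up to 3 in each direction, are named, with Hdac1 and Hdac2 added after their values were seen. Alternatives were a pseudocount of 0.1, no filter, a mean of at least 5 TPM, median-ratio and quantile scaling, no trend, robust moderation, array weights, an enterocyte covariate, a length and GC correction, the replicate number as a block, each library left out, and a threshold of 0.05. Leaving out WT replicate 1 and Mtg16-/- replicate 3 together was added after the data were seen.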

Additional observations from a re-analysis of the deposited data

How the results depend on the processing

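No member was called under any alternative but the replicate block, which called Chd3 (1 member, adjusted p = 0.0353 from limma) and, of the partner genes, 1 (Rbbp7), with 1201 of all tested genes (9.79%). The labels do not say whether shared replicate numbers pair the mice, and correlations between so few libraries cannot settle it. Deviations of same-numbered libraries correlated with r = 0.429, 0.0753 and 0.237, the highest value for each Mtg16-/- library. For Mtg16-/- replicate 2 this was barely above the 0.0547 with WT replicate 3. WT replicate 2 correlated more with Mtg16-/- replicate 3 (0.198) than with its own number. The block changed no other call among the genes named. Of all tested genes, 4 were called in the reported fit, 855 with array weights, 20 with robust moderation, 19 with WT replicate 1 and Mtg16-/- replicate 3 both left out, 17 with the length and GC correction, 15 at a mean of at least 5 TPM, 1 with median-ratio or quantile scaling, and 0 with no filter, no trend, the enterocyte covariate or a threshold of 0.05. Leaving out 1 library gave 0 (without Mtg16-/- replicate 3) to 20 (without WT replicate 1). The count of members without overlap was 6, with quantile scaling 6 (22.1% of all tested genes), with median-ratio scaling 8 (21.9%) and with 1 library left out 7 to 12 (27.7% to 38.7%), where fewer libraries separate more easily.

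The SWI/SNF median was -0.10 with the enterocyte covariate, the NuRD median 0.10 with quantile normalization, and the INO80 median between -0.15 and -0.04 (without Mtg16-/- replicate 3) on leaving out 1 library. Small share differences changed sign: Brd9 (0.0982 points) to -0.254 with quantile normalization and -1.18 to 1.17 with 1 library left out, Chd1 (2.28) to -0.574 with both libraries out and -0.143 to 3.83 with 1 left out, Smarca5 (-0.043) to between -0.0929 and 0.0501 with 1 left out, and Baz1b (1.23) to between -0.198 and 1.98. Of 23 named members, 8 kept the sign of the log2 fold change under every alternative run and 15 did not. The enterocyte covariate was the mean centred log2 value of the 12 enterocyte markers, whose summed TPM separated the genotypes. With this covariate the CHD median was 0.06. The values were 0.11 for Chd1, 0.14 for Chd2, 0.00 for Chd3, 0.29 for Chd9, -0.09 for Smarca5, -0.19 for Smarcc1 and -0.16 for Mta1. With the length and GC correction they were 0.01 for Smarca4 and 0.05 for Chd4, with quantile normalization 0.06 for Chd4, and with array weights 0.18 for Chd9. With both libraries left out they were 0.07 for Chd1, 0.10 for Chd2, 0.02 for Chd4, 0.01 for Chd8, 0.29 for Chd9, 0.00 for Smarca5 and 0.06 for Ep400. With 1 library left out the ranges were -0.10 to 0.22 for Smarca2, -0.20 to 0.11 for Chd4, -0.10 to 0.26 for Chd6, -0.25 to 0.02 for Chd7, -0.20 to 0.17 for Chd9, -0.35 to 0.09 for Ep400 and -0.02 to 0.33 for Atrx. None of these values passed the threshold, and the causes were not tested. With 3 mice a group, differences inside the printed intervals could not be told from none.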
